A study of Homo sapiens with 6 samples.

Results

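The genes described here are 10 markers of astrocytes, measured in MO3.13 cells, a human line that the labels call an oligodendroglioma line. The markers are GFAP, GJA1, AQP4, S100B, ALDH1L1, SLC1A2, SLC1A3, GLUL, SOX9 and FABP7, a list taken by name. Each of the 10 was represented by 1 probe set annotated with that gene alone, so all 10 were measured, among 14232 genes that had such a probe set. Expression was read on 6 arrays, 3 of control cells and 3 of Klotho-treated cells. Both groups were grown in DMEM with 10% fetal bovine serum. The treated cells then received recombinant mouse Klotho at 0.4 µg/mL for 3.5 h in DMEM without serum, a step that the labels give for the treated group only. Klotho and the removal of serum therefore cannot be told apart in this design, as far as the labels go. The labels name no genotype, clone or separate culture for the arrays, so the spread between arrays of 1 group may be technical.

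Astrocytes are the glial cells that supply neurons, clear transmitter from synapses and keep water and potassium in balance. Their marker genes fall into a few roles: a filament protein of the cell skeleton, a channel that joins neighbouring cells, a water channel, transporters and an enzyme that take up glutamate and turn it into glutamine, a folate enzyme, a calcium-binding protein, and factors of the glial precursor. MO3.13 is known as a hybrid line, made by fusing human oligodendrocytes with a rhabdomyosarcoma line, and is often used as a model of oligodendrocytes. Some of the markers, among them SOX9, GLUL and S100B, are also known from oligodendrocyte lineage cells and from other tissues.

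Over 22011 probe sets, r between any pair of arrays was 0.985 to 0.991, and their medians lay between 6.36 and 6.47 on the log2 scale. The component of largest variance held 33.8% of the variance around the probe set means and did not separate the groups. Control array 1 (32.8) and Klotho array 3 (18.4) stood highest on it. Klotho arrays 1 (-26.3) and 2 (-14.9) stood lowest, with control arrays 2 (-6.92) and 3 (-3.05) between. What this component reflects was not tested. Of the oligodendrocyte genes checked against the label, MBP, MAG, OLIG1, OLIG2, SOX10, MYRF and CNP had signals above the bound described next and MOG did not. MBP, MAG, OLIG1, OLIG2 and SOX10 still read below the highest olfactory receptor gene (6.01). Of the skeletal muscle genes, 7 of 8 were above the bound, MYF5 being the exception. Over all genes, 74.8% were above it.

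No detection calls were at hand, so the signals of 220 olfactory receptor genes, which are seldom transcribed outside the nose, were used to show how probe sets of such genes read. In control cells these had a median log2 signal of 3.31 and a 95th percentile of 5.04. The position of a marker against them describes the brightness of its probe set; it is not a detection call, and it does not rank transcript amounts between genes. Of the 10 markers, 5 were above the 95th percentile in control cells, against 74.8% of all genes. SOX9, SLC1A3 and GLUL read above all 220 olfactory receptor genes, GFAP above 99.1% of them and ALDH1L1 above 98.2%. GJA1 lay at the upper edge, above 90.9%. S100B (54.1%), FABP7 (43.2%), SLC1A2 (39.5%) and AQP4 (37.3%) lay in the middle of the olfactory receptor range. The markers thus divide into 5 above the 95th percentile and 5 below it, and 3 of the former read beyond the highest olfactory receptor gene (6.01). GJA1, S100B, FABP7, SLC1A2 and AQP4 were on the low side, and SOX9, SLC1A3, GLUL, GFAP and ALDH1L1 on the high side.

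**Figure D1:**
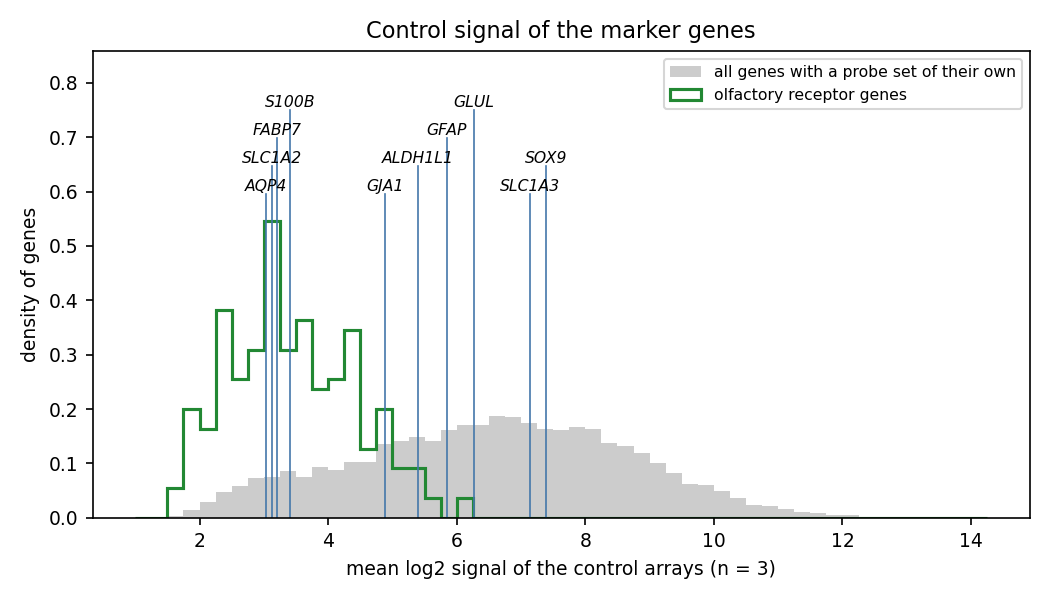
Histogram of the mean log2 signal of the control arrays (n = 3) for all 14232 genes (grey) and for 220 olfactory receptor genes (green line), each scaled to the same area, with a blue line for each astrocyte marker. AQP4, SLC1A2, FABP7 and S100B stand within the bulk of the olfactory receptor genes (median 3.31), and SOX9, SLC1A3 and GLUL stand to the right of all of them.

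The start sites of the markers were set beside these levels, since promoters rich in CG dinucleotides are typical of broadly transcribed genes. RefSeq promoter sequences (GRCh38.p14) were at hand for 6 of the 10 markers, with 12 promoters in all. None were at hand for GFAP, S100B, SLC1A2 and SOX9. The 200 bases before each start site were examined. A CG count at or above 0.6 of that expected from the C and G content was found in 48.1% of all 35116 promoters. Taking the first promoter listed for each of 11386 measured genes, 67.0% were at or above this value, with a median control signal of 7.38, against 5.15 for the rest. By the same rule, ALDH1L1 (0.83) and GLUL (0.756), both with a signal above the 95th percentile of olfactory receptor genes, were at or above 0.6. The second promoter of ALDH1L1 was under it (0.411), and that of GLUL was not (0.771). The first promoters of GJA1, AQP4, FABP7 and SLC1A3 were under 0.6. SLC1A3 was under it although its signal was above that of all olfactory receptor genes; its first promoter had a ratio of 0.117 and the other two 0.331 and 0.614. No promoter of GJA1, AQP4 or FABP7 reached 0.6. The promoters of 3 markers are printed to show the contrast, from the gene's strand, in lower case with every CG in capitals: that of GJA1 (chr6:121435446-121435645, plus strand), with 0 CG, the first of AQP4 (chr18:26865804-26866003, minus strand), with 1, and the first of GLUL (chr1:182391791-182391990, minus strand), with 20 and a ratio of observed to expected of 0.756.
GJA1: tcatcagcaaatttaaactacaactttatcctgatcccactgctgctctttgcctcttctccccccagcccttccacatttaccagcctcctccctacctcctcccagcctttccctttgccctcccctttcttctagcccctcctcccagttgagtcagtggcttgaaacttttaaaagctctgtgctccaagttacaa
AQP4: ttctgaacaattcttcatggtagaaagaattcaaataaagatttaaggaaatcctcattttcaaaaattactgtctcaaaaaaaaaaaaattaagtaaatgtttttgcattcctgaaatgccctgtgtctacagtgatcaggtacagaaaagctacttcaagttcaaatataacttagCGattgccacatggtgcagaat
GLUL: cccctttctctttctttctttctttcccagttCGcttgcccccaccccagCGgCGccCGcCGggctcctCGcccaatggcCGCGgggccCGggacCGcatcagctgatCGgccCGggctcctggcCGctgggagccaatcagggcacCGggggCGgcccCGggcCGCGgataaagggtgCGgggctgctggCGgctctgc
The letters TATAAA, on either strand, were in 2 of the 12 promoters, the third of AQP4 and the first of ALDH1L1, and in 8.59% of all promoters.

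Treated and control cells were compared to ask whether the markers differ after 3.5 h of Klotho. No marker passed: 0 of 10 had an adjusted p under 0.05 in limma and 0 had an unadjusted p under 0.05, and for 0 of 10 did the 3 treated values lie apart from the 3 control values. Over all probe sets the adjusted threshold was passed by 0% and the unadjusted one by 3.19%, and over all genes the groups did not overlap for 7.89%, so a count of 0 among 10 is near the background. The means were lower in treated cells for 6 markers and higher for 4. Quantile normalization and cyclic loess gave the same 6 and 4, and centring each array on its median gave 5 and 5. As deposited, 62.6% of all genes were lower. The median difference of the 10 was -0.04 on the log2 scale, against -0.03 over all genes. The limma adjusted p was 0.998 for 9 of the markers and 0.999 for AQP4.

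**Figure D2:**
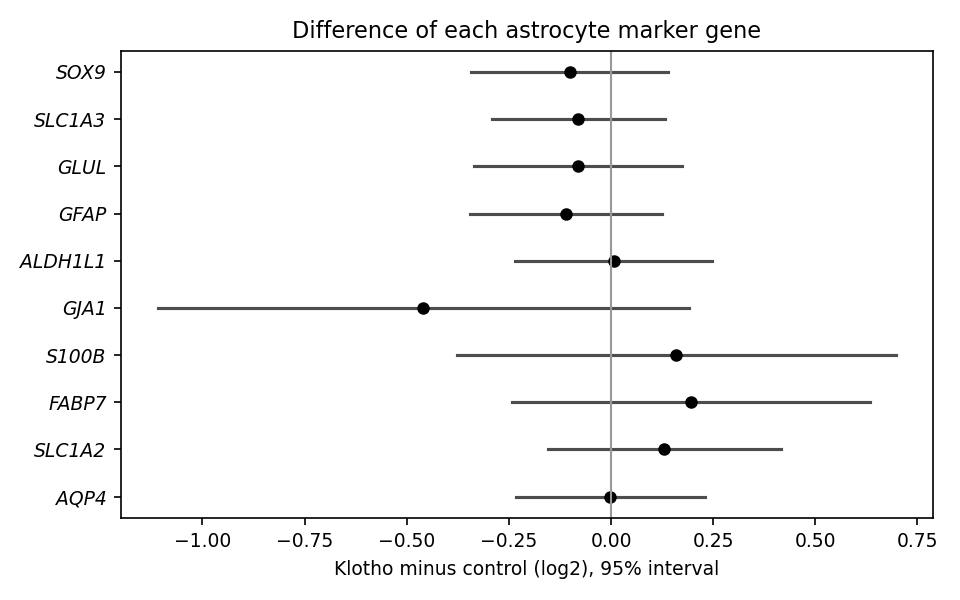
Difference of treated minus control cells in log2 signal for each marker (dot) with its 95% interval from the moderated variance (line), 3 arrays per group. All 10 intervals include 0, and those of GJA1, S100B and FABP7 are the widest of the 10.

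The intervals put bounds on the signal of most markers. For 7 of the 10 the 95% interval stayed inside 1.5-fold both ways, against 91.7% of all genes. The exceptions were GJA1, S100B and FABP7. For markers within the olfactory receptor range a bound on the signal need not be a bound on the transcript.

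GFAP encodes the intermediate filament protein that defines astrocytes in histology. It read 5.82, 5.83 and 5.90 on the control arrays and 5.75, 5.88 and 5.58 on the treated arrays (log2 signal). The control values were close together, and Klotho array 3 was the lowest of the 6. The means were 5.85 ± 0.04 and 5.74 ± 0.15 (SD, n = 3), a difference of -0.11 with a 95% interval of -0.35 to 0.12, or -0.03 without Klotho array 3.

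GJA1 encodes connexin 43, whose channels couple astrocytes into a network. It read 4.28, 5.15 and 5.20 on the control arrays and 4.13, 4.60 and 4.52 on the treated arrays. Control arrays 2 and 3 were above all treated arrays, whereas control array 1 was below 2 of them, so the groups overlapped. The means were 4.88 ± 0.52 and 4.42 ± 0.25 (SD, n = 3), a difference of -0.46 (95% interval -1.11 to 0.19), or 0.727-fold. The SD of GJA1 over the 6 arrays, 0.44, was larger than that of 98.8% of all genes and than that of 96.2% of the 2923 genes whose mean signal, like that of GJA1, fell under the 25th percentile of probe sets (4.70). Without control array 1 the difference was -0.76 (95% interval -1.16 to -0.35), with an unadjusted p of 0.00435 and a limma adjusted p of 0.9999. Without control array 2 it was -0.32, without control array 3 -0.30 and without Klotho array 1 -0.32. Without Klotho array 2 it was -0.55 and without Klotho array 3 -0.51. The 95% interval included 0 in each fit except the one without control array 1. Control array 1 is also 1 of the pair that stood highest on the leading component. Over the 6 arrays GJA1 had r = -0.11 with that component. Klotho array 1, the lowest on it, also had the lowest GJA1 value. The part of the component in the GJA1 values was not tested.

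AQP4 encodes the water channel of astrocyte endfeet. It read 2.95, 3.17 and 3.00 on the control arrays and 3.10, 3.08 and 2.93 on the treated arrays. Both groups spanned nearly the same range. The difference was 0.00 with a 95% interval of -0.23 to 0.23, at a signal in the middle of the olfactory receptor range.

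**Figure D3:**
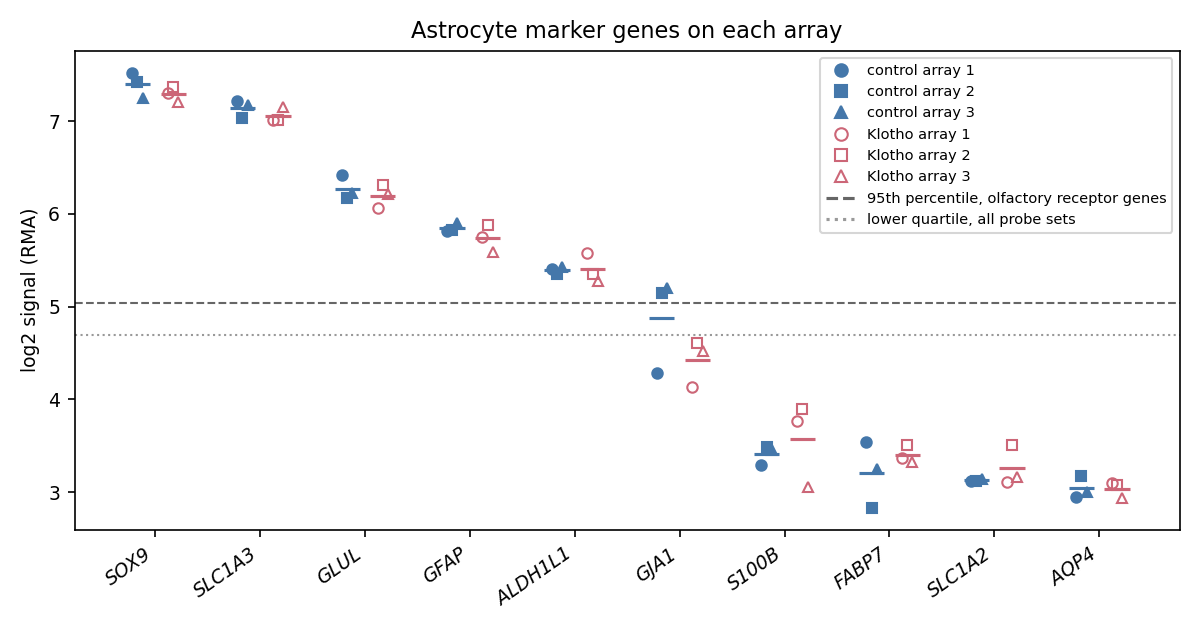
Log2 signal of each marker on each of the 6 arrays; filled blue symbols are control arrays, open red symbols Klotho arrays, symbol shapes the array numbers and short bars the group means (n = 3). The dashed line is the 95th percentile of olfactory receptor genes in control cells (5.04) and the dotted line the 25th percentile of probe sets (4.70). Control array 1 stands apart from the other two control arrays for GJA1, and Klotho array 3 from the other two treated arrays for S100B.

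The transporters SLC1A2 and SLC1A3, known as GLT-1 and GLAST, take up glutamate from the synapse, and GLUL, glutamine synthetase, converts it to glutamine. SLC1A2 read 3.11, 3.12 and 3.14 on the control arrays and 3.11, 3.50 and 3.16 on the treated arrays. Klotho array 2 alone stood above the other 5 arrays, and the difference was 0.13 (95% interval -0.16 to 0.42), or 0.01 without that array. SLC1A3 read 7.21, 7.03 and 7.17 on the control arrays and 7.02, 7.01 and 7.15 on the treated arrays. The ranges overlapped, with a difference of -0.08 (95% interval -0.29 to 0.13). GLUL read 6.42, 6.18 and 6.22 on the control arrays and 6.06, 6.31 and 6.21 on the treated arrays. Its highest value was control array 1 and its lowest Klotho array 1, the 2 arrays at the ends of the leading component, with which GLUL had r = 0.72 and SLC1A3 r = 0.85 over the 6 arrays. The GLUL difference was -0.08 (95% interval -0.34 to 0.17).

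ALDH1L1 encodes a folate-dependent dehydrogenase widely used to mark astrocytes. It read 5.40, 5.36 and 5.42 on the control arrays and 5.58, 5.35 and 5.27 on the treated arrays. The treated arrays lay on both sides of the controls, and the difference was 0.01 (95% interval -0.23 to 0.25).

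S100B encodes a calcium-binding protein of astrocytes that is also secreted. It read 3.29, 3.49 and 3.45 on the control arrays and 3.77, 3.89 and 3.05 on the treated arrays. Klotho arrays 1 and 2 were above all controls and Klotho array 3 below all of them. The difference was 0.16 with a 95% interval of -0.38 to 0.70. Without Klotho array 3 it was 0.42 (95% interval 0.15 to 0.69), with an unadjusted p of 0.00897 and a limma adjusted p of 0.837. Without Klotho array 2, the highest of the 6, it was 0.00. S100B had r = -0.83 with the leading component over the 6 arrays, and Klotho array 3 was second highest on that component. The part of the component in the S100B values was not tested. The S100B signal was within the olfactory receptor range on all arrays.

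**Figure D4:**
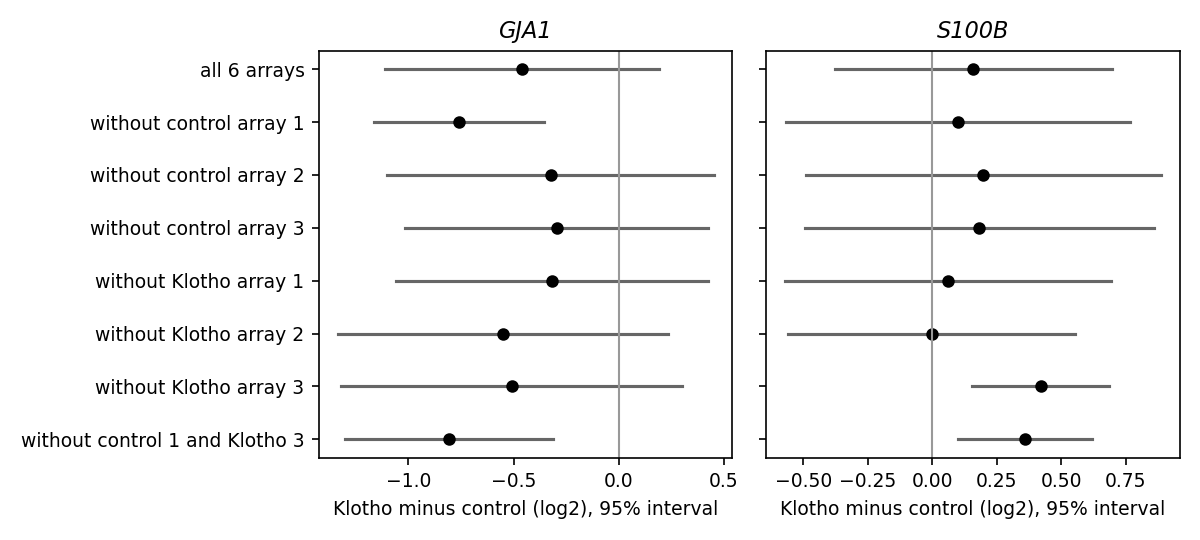
Difference of treated minus control cells in log2 signal (dot) with its 95% interval (line) for GJA1 and S100B, with all 6 arrays, with each array left out in turn, and without control array 1 and Klotho array 3 together. The GJA1 interval lies below 0 without control array 1 (-0.76) and the S100B interval above 0 without Klotho array 3 (0.42); with all 6 arrays both include 0.

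SOX9 encodes a transcription factor that glial precursors need and that astrocytes keep. It read 7.52, 7.42 and 7.24 on the control arrays and 7.30, 7.37 and 7.21 on the treated arrays. The treated values lay within or just under the control range, with a difference of -0.10 (95% interval -0.34 to 0.14). FABP7 encodes the brain fatty acid binding protein of radial glia. It read 3.54, 2.83 and 3.25 on the control arrays and 3.37, 3.51 and 3.33 on the treated arrays. The controls held both the highest and the lowest value, and the difference was 0.20 (95% interval -0.24 to 0.63). It was 0.01 without control array 2, which held the lowest value, and 0.36 (95% interval -0.01 to 0.74) without control array 1, which held the highest.

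The markers did not move as 1 group over the arrays. As a description over 6 arrays, which share their processing, the closest pair was AQP4 and S100B (r = 0.68), followed by GLUL and SOX9 (r = 0.60) and by GFAP and S100B (r = 0.60). The most opposed pair was AQP4 and SLC1A3 (r = -0.86), followed by S100B and SLC1A3 (r = -0.76) and by GJA1 and FABP7 (r = -0.71). AQP4 and S100B went against the leading component (r = -0.77 and -0.83), SLC1A3 and GLUL with it. Among 11309 other genes with a signal at or above the lower quartile, the 3 most like GJA1 over the 6 arrays were the kinase gene MAPK11 (r = 0.992), the histone chaperone gene DAXX (r = 0.989) and the ligand gene WNT3A (r = 0.973). These 3 were the top of a ranking of all 11309 genes, over few arrays. Their values changed much less than those of GJA1. From lowest to highest array MAPK11 spanned 0.09, DAXX 0.40 and WNT3A 0.26 on the log2 scale, against 1.07 for GJA1.

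Other genes of the astrocyte programme were taken from lists written by role. Of 25 wider astrocyte genes 21 were measured. A control signal above the olfactory receptor bound was found for 13 of them (61.9%), against 74.8% of all genes. CLU, which encodes the chaperone clusterin, read 8.40, NDRG2 7.76 and the cystine transporter gene SLC7A11 7.30, whereas the urea transporter gene SLC14A1 (3.00), the bicarbonate transporter gene SLC4A4 (3.06) and GJB6, the gene of connexin 30 (3.19), read like the olfactory receptor genes. None of the 21 passed in limma and 0 had an unadjusted p under 0.05. As deposited 7 were higher and 14 lower. Quantile normalization and median centring each gave 12 and 9, and cyclic loess 10 and 11. The smallest p were those of the glycine cleavage gene GLDC (-0.21, 95% interval -0.48 to 0.05), ACSBG1 (0.11) and NDRG2 (-0.12).

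Radial glia and transcription factor genes were mostly above the bound, 15 of 17 measured (88.2%), against 74.8% of all genes. VIM, which encodes the filament protein vimentin, read 11.51, STAT3 10.04 and NES, the gene of nestin, 8.69. EMX2 (4.47) and RFX4 (4.64) were below the bound. None of the 17 passed in limma and 0 had an unadjusted p under 0.05. As deposited 12 were lower and 5 higher. Quantile normalization and cyclic loess each gave 11 and 6, and centring each array on its median gave 9 and 8. The smallest p belonged to ID3 (-0.17), PAX6 (-0.12) and EMX2 (-0.11).

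Genes known to rise in reactive astrocytes were split: 9 of 16 measured (56.25%) were above the bound, against 74.8% of all genes. Among the 9 were TIMP1 (11.13), S100A10 (10.90), HSPB1 (10.13), the matrix gene TNC (10.10) and the hyaluronan receptor gene CD44 (8.05). These named genes are all known from many cell types. SERPINA3 (3.67), CXCL10 (2.51) and CP (2.40) read within the olfactory receptor range. None passed in limma and 0 had an unadjusted p under 0.05. As deposited 10 were lower and 6 higher. Quantile normalization gave the same 10 and 6, cyclic loess 11 and 5, and median centring 8 and 8. EMP1 (-0.18, 95% interval -0.41 to 0.04), TNC (-0.16) and OSMR (-0.13) had the smallest p.

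Gene families of the markers were examined next. Their counts above the bound stand beside a share of 74.8% over all genes. Around SLC1A2, SLC1A3 and GLUL, 12 of 16 genes of glutamate transport and metabolism were measured and 11 were above the bound, led by the glutamine transporter gene SLC38A2 (12.11). The neuronal glutamate transporter gene SLC1A1 (-0.27, 95% interval -0.69 to 0.15), ASNS (0.15) and SLC1A6 (0.18) had the smallest p. Around GJA1, 17 other connexin and pannexin genes were measured and 8 were above the bound. GJC1, the gene of connexin 45, read 9.13 ± 0.06 (SD, n = 3) in control cells with a difference of -0.11, and PANX1 8.16. PANX3 (-0.27), GJA3 (0.19) and GJD4 (0.12) had the smallest p. In neither list did any gene have an unadjusted p under 0.05.

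Around AQP4, 9 aquaporin genes were measured and 6 were above the bound, with the smallest p for AQP3 (-0.19), AQP8 (0.13) and AQP2 (0.23). Around S100B, 5 of 12 S100 genes were above it, with S100A13 (0.17), S100A12 (0.27) and S100Z (-0.09) nearest to the threshold. FABP4 (-0.21), FABP6 (-0.06) and FABP2 (0.06) stood nearest among 4 fatty acid binding genes. ALDH1A3 (-0.10), ALDH1A2 (-0.09) and ALDH1A1 (0.07) did so among 8 aldehyde dehydrogenase and folate genes. SOX3 (0.03), SOX10 (-0.04) and SOX8 (0.02) did so among 4 SOX genes. Among 9 filament genes, the relatives of GFAP, DES had an unadjusted p of 0.0190 and an adjusted p of 0.998 in limma, with a difference of -0.27 (95% interval -0.47 to -0.06), and SYNM (-0.22) and PRPH (-0.12) followed. DES, the gene of desmin, is also on the muscle list and was the 1 gene of all the lists with an unadjusted p under 0.05.

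Lists of other cell types were set beside the markers on the same bound. It was passed by 7 of 8 oligodendrocyte genes, 3 of 4 precursor genes, 7 of 8 muscle genes and 5 of 6 fibroblast genes. Only 1 of 6 neuron genes (MAP2) and 1 of 7 microglia and blood genes (CD68) passed it. The share over all genes was 74.8%. Averaged over the 10 astrocyte markers, the log2 signal was 4.95 on control array 1, 4.96 on control array 2 and slightly higher on control array 3, and it ran from 4.84 to 5.05 on the treated arrays. The average of the oligodendrocyte genes ran from 5.88 to 5.98 in control and from 5.83 to 6.03 in treated cells, and that of the muscle genes from 8.59 to 8.67 in control cells, with 8.57 on each treated array. What part such cell type genes have in the marker values was not tested. Apart from DES, no gene of these lists had an unadjusted p under 0.05; the smallest p belonged to OLIG2 (0.11), OLIG1 (0.14) and MYRF (-0.07), to NKX2-2 (0.28), SOX6 (-0.13) and PTPRZ1 (0.01), to STMN2 (-0.16), SYP (0.32) and SYT1 (-0.08), to TYROBP (0.17), CD68 (-0.10) and P2RY12 (-0.07), and to COL1A2 (-0.26), COL3A1 (-0.22) and PDGFRB (-0.10). After DES, MYOD1 (-0.09) and CHRND (-0.05) followed on the muscle list.

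**Figure D5:**
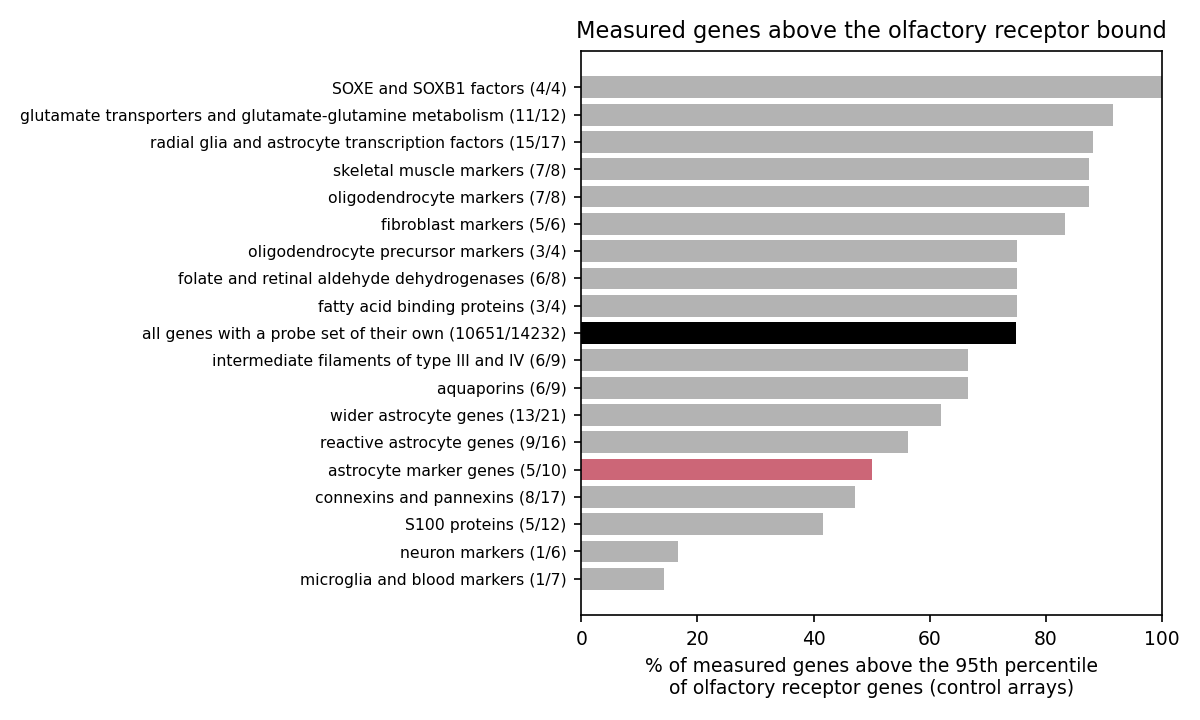
Share of the measured genes of each list whose control signal was above the 95th percentile of olfactory receptor genes, with the counts in brackets; the red bar is the astrocyte markers and the black bar all genes. The astrocyte markers (5 of 10) lie below all genes (74.8%) and above the neuron (1 of 6) and microglia and blood (1 of 7) lists.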

How the data were processed

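Total RNA of 6 samples of MO3.13 cells, 3 per group, was labelled from 100 ng by NuGEN amplification, per the labels' protocols. The authors deposited log2 values, 1 per probe set and array, made with RMA, per the submitters' processing notes; software, version, annotation and filters were not given in the sources used here. RMA is meant to equalise the arrays, so a shift shared by most genes may be removed at least in part. The medians of the deposited arrays still ran from 6.36 to 6.47. The test was that of limma 3.58.1 (lmFit and eBayes, 2-sided, R 4.3.3) on all 22011 probe sets, with Benjamini-Hochberg adjustment over all of them at 0.05, among them 5171 without a gene name. For each gene the probe set of highest mean was taken among those with that symbol alone. Intervals are 95% intervals of the moderated variance. Arrays give no read depth; their number limits the precision. No batch information was at hand. The fit was tested on simulated data. Members, lists and tests were chosen with earlier results of these data known; named genes are the 10 markers, up to 3 genes of smallest p per list, and the 3 genes most like GJA1. Other genes of the lists are named by their control signal and were chosen after their values were seen. Alternatives were other scalings, filters, variance models, the replicate number as a block and leaving out arrays. Deviations of same-numbered arrays from their group means correlated at -0.18, 0.06 and -0.14. With 3 arrays per group these values cannot exclude that the replicate numbers pair the arrays.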

Additional observations from a re-analysis of the deposited data

How the results depend on the processing

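Under all 17 alternatives 0 of the markers and 0 probe sets passed the adjusted threshold in limma. Probe sets with an unadjusted p under 0.05 numbered 703, and 436 without dim probe sets, 447 with 1-symbol probe sets only, 442 with means per gene (fewer were tested in these), 1644 with array quality weights, 1127 without control array 1 and Klotho array 3 (an alternative chosen after seeing the data), and 577 to 1200 with 1 array left out. Of the 703, 292 were higher and 411 lower, against 510 and 253 with median centring. Markers with an unadjusted p under 0.05 numbered 1 with array quality weights (GJA1), 1 with the replicate block (GJA1), 2 without the pair of arrays named above (GJA1 and S100B) and 0 to 1 with 1 array left out. The cause of these changes was not tested. With the replicate block the GJA1 adjusted p in limma was 0.9997. Under it 662 probe sets had an unadjusted p under 0.05, against 703 in the main fit. The block changed the call of no other marker. Genes whose groups do not overlap rose from 1123 to between 1886 and 3463 with 1 array left out and to 4710 without both, where fewer values have to be apart. The GJA1 difference ran from -0.81 to -0.30 over 16 alternatives and its limma adjusted p from 0.662 to 1.00. The filter on dim probe sets removed GJA1, AQP4, S100B, SLC1A2 and FABP7, which therefore have no value there. The sign of the difference changed for AQP4 in 5 alternatives, ALDH1L1 in 3, SOX9 in 2 and S100B in 1, all at an unadjusted p above 0.05. The median of the 10 stayed between -0.05 and 0.01 in the alternatives that kept all 10. The 5 markers left by the filter on dim probe sets had a median of -0.08.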
